A study of Mus musculus with 6 samples.

Results

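This account follows the actin regulators of T cells, a set of 42 listed genes that build, branch, cut and anchor actin filaments or switch on the proteins that do. Of the 42 genes, 39 were measured, among 19938 genes tested on the arrays. For each gene the probe set that names only its symbol in the platform annotation was used, and where there were several, the one with the highest mean over the 6 arrays. Arpc3 and Actr2 had no named probe set in that annotation, and Actg1 had only probe sets shared with Actb, so these 3 genes have no value of their own.

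The cells were BDC2.5 CD4 T cells, which carry a T cell receptor against a pancreatic beta cell antigen. They had been transferred into NOD mice, a strain prone to autoimmune diabetes, and were recovered from the spleens of females aged 7 weeks by sorting Thy1.1+CD4+ cells. The 3 groups were mice given 100 ng of anti-DCIR2-BDC, mice given 100 ng of anti-DEC205-BDC, and mice given PBS, each sampled at 14 h with 2 arrays labelled as biological duplicates. Both antibodies carry the BDC antigen to dendritic cells, one to those with the receptor DCIR2 and the other to those with DEC205. No group received an antibody without antigen, so what the antigen did and what the antibody did cannot be told apart. The labels do not say how many mice gave each array, so p-values measure the spread between these samples.

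T cells hold actin as single molecules and as filaments that grow at one end and shrink at the other. The Arp2/3 complex starts new branches on old filaments when WASP and WAVE proteins switch it on. Cofilin relatives, glia maturation factors and coronins cut or prune the branches. T cells use this machinery to crawl through lymphoid tissue, to form the contact with an antigen-presenting cell and to keep receptor signalling going.

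The sorted cells had the profile of T cells. The 9 measured T cell markers lay between percentiles 79.7 and 99.7 of brightness among all genes, and markers of CD8 T cells, B cells, dendritic cells, macrophages and monocytes, neutrophils, NK cells, platelets and erythroid cells lay between percentiles 3.93 and 68.2. The stromal and endothelial list reached percentile 86.6 through Pecam1, which T cells also make. Brightness ranks probe sets on these arrays and is no measure of transcript number. Each array had a median log2 value from 5.43 to 5.56.

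After anti-DCIR2-BDC, 16 of the 39 measured actin regulators fell against PBS and 2 rose. The background was 7.82% of all genes called lower and 10.1% called higher (limma, adjusted p under 0.05 over all genes). The members that fell made up 41.0% of those measured and those that rose 5.13%. Of the measured members 38 were among the brightest 25% of genes, where 15.7% of genes were called lower and 27.1% higher. After anti-DEC205-BDC, 7 of 39 fell and 2 rose, where the background was 3.53% called lower and 5.32% called higher, 8.84% in all, or 7.62% and 16.1% among the brightest genes. The arrays of 23 members lay lower after anti-DCIR2-BDC than after PBS without overlap and those of 6 higher, where 31.9% and 23.4% of all genes did so, 55.3% in all. After anti-DEC205-BDC the arrays of 16 lay lower and those of 5 higher without overlap, where 26.5% and 22.2% of all genes did so, 48.8% in all. The median log2 change of the members was -0.31 after anti-DCIR2-BDC and -0.11 after anti-DEC205-BDC, and that of all genes was -0.05 and -0.03. These 2 comparisons share the PBS arrays, so they are given side by side and not set against each other. In bulk samples such as these, fewer cells of a type and less RNA per cell cannot be told apart.

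**Figure D1:**
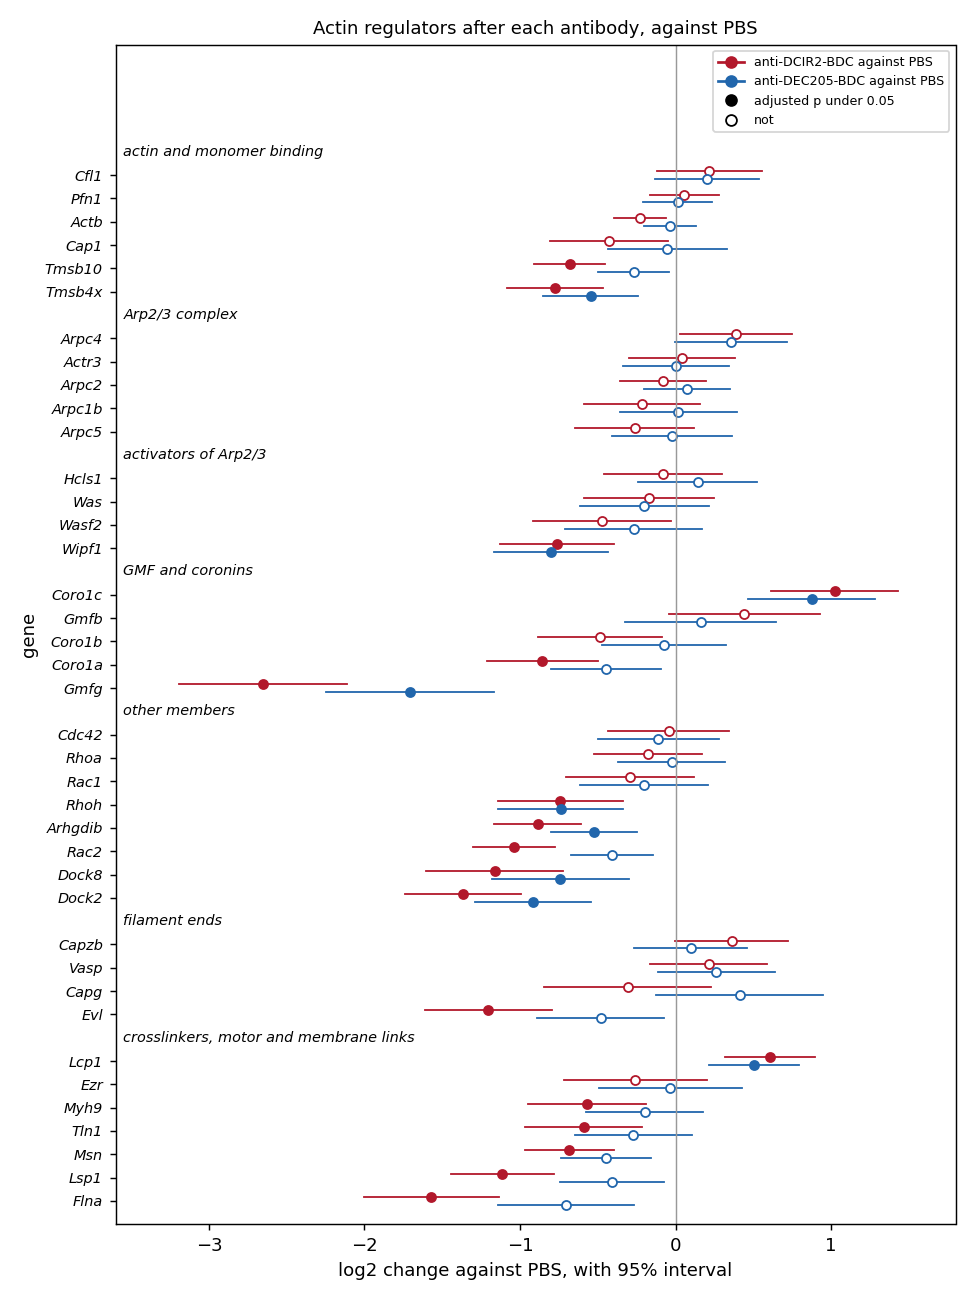
Log2 change against PBS (horizontal axis) of the 39 measured actin regulators, grouped by role, after anti-DCIR2-BDC (red) and anti-DEC205-BDC (blue). Points are estimates from 2 arrays a group, bars are 95% intervals and filled points passed an adjusted p of 0.05. Gmfg lies farthest left at -2.65 and -1.71, the 5 Arp2/3 subunits stay between -0.26 and 0.39, and Coro1c lies farthest right at 1.02 and 0.88.

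Promoter sequences of 3 members are shown because they belong to the member with the largest fall (Gmfg), the Rac activator that fell after both antibodies (Dock2) and the member with the largest rise (Coro1c). Each is the 250 bases before an annotated start, from RefSeq on GRCm38.p6, read 5′ to 3′ on the gene's strand. Gmfg has a pair of annotated starts, on the plus strand at chr7:28437219-28437468 and chr7:28440687-28440936. Dock2 lies on the minus strand with its window at chr11:34783906-34784155, and Coro1c on the minus strand at chr5:113908707-113908956. Capitals mark matches on either strand to the ETS motif CCGGAAG, the RUNX motif TGTGGT, the E-box CACGTG or the CArG box that the serum response factor binds.
Gmfg, first start: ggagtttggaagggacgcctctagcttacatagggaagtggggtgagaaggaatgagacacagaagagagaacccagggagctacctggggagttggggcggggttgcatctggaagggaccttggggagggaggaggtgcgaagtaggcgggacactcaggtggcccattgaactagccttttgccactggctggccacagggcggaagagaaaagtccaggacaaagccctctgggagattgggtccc
Gmfg, second start: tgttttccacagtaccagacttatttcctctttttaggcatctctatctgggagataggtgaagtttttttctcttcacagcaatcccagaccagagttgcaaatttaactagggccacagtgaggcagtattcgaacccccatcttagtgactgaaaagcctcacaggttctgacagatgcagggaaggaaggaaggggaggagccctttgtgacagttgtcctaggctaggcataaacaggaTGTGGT
Dock2: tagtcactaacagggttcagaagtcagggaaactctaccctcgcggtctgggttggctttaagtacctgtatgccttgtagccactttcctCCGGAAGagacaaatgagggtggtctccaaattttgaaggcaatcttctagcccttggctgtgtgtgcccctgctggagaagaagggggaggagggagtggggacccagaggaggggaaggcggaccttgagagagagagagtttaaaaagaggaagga
Coro1c: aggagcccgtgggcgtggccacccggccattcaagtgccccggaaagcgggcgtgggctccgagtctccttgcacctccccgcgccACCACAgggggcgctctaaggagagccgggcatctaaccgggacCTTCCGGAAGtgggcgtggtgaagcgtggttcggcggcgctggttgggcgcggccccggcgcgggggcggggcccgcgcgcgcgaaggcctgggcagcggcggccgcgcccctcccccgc
The first Gmfg window held none of these letters, and the second held TGTGGT directly before its start. Dock2 held 1 ETS match, and Coro1c held 1 RUNX match and a pair of ETS matches that overlap on opposite strands. Windows were found for 34 of the measured members, 45 windows in all. The ETS motif lay in 10 of these 45 windows (22.2%), from 9 genes, and in 6.91% of the 32851 windows of all genes. Nearly all members are bright and the windows of all genes include those of dim genes. The share is therefore not shown to be particular to the members. TGTGGT lay in 13.3% of the members' windows against 14.0% of all, CACGTG in 6.67% against 6.02%, and the CArG box in 2.22% against 1.47%, the 1 window being that of Arpc4. A match is only a stretch of letters. Of the 14 genes with a window that fell after anti-DCIR2-BDC, 2 held the ETS motif, as did 6 of the 18 with a window that were not called. TGTGGT was held by 4 of those 14 and 1 of those 18, CACGTG by 1 and 2, and the CArG box by 0 and 1. These differences were not tested.

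Gmfg encodes glia maturation factor gamma, a cofilin relative of blood cells that prunes Arp2/3 branches. Its brighter probe set read 7.79 and 8.50 after anti-DCIR2-BDC, 8.91 and 9.26 after anti-DEC205-BDC, and 10.63 and 10.96 after PBS (log2 values of arrays 1 and 2). The 3 groups do not overlap, and both PBS arrays are the highest. Gmfg was 6.28-fold lower after anti-DCIR2-BDC than after PBS (log2 change -2.65, 95% interval -3.19 to -2.11, adjusted p = 7.94e-05). After anti-DEC205-BDC it was 3.27-fold lower (log2 change -1.71, 95% interval -2.25 to -1.17, adjusted p = 0.00249). They were the largest falls among the members in both comparisons, and Gmfg passed under all 17 alternative settings in each.

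The other probe set that names Gmfg did not show a fall of this size. It read 5.83 and 5.61 after anti-DCIR2-BDC, 5.42 and 5.52 after anti-DEC205-BDC, and 6.06 and 5.75 after PBS. The anti-DCIR2-BDC and PBS arrays overlap there, while both anti-DEC205-BDC arrays lie below both PBS arrays, as for 26.5% of all genes. This probe set is dim, with values near the array medians of 5.43 to 5.56. When every probe set was tested, its log2 change was -0.18 after anti-DCIR2-BDC (adjusted p = 0.631) and -0.43 after anti-DEC205-BDC (adjusted p = 0.306). With the mean of both probe sets the log2 changes of Gmfg were -1.42 and -1.07. The platform annotation lists Gmfg transcripts for both probe sets, while RefSeq also lists a related gene, Gmfg-ps, and whether either probe set reads that copy was not tested. The fall of Gmfg therefore rests on 1 of its probe sets. Every alternative setting used that probe set, alone or averaged with the other, so the alternatives do not test this choice.

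Gmfb, the relative of Gmfg found in most cell types, did not pass in either comparison. It read 8.21 and 8.54 after anti-DCIR2-BDC, 8.14 and 8.04 after anti-DEC205-BDC, and 7.69 and 8.17 after PBS. Only the anti-DCIR2-BDC arrays lie above both PBS arrays. Its log2 change was 0.44 after anti-DCIR2-BDC (95% interval -0.04 to 0.93) and 0.16 after anti-DEC205-BDC (-0.33 to 0.65). In both comparisons its interval lies wholly above that of the brighter Gmfg probe set. The dimmer Gmfg probe set, at -0.18 and -0.43, was not compared in this way.

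The coronins, which bind filaments and modulate Arp2/3 and cofilin, moved in different directions. Coro1a, the leukocyte form that naive T cells need to survive, read 9.71 and 9.69 after anti-DCIR2-BDC, 9.98 and 10.24 after anti-DEC205-BDC, and 10.40 and 10.71 after PBS. It fell after anti-DCIR2-BDC, by 0.86 on the log2 scale (adjusted p = 0.00373), and its change after anti-DEC205-BDC was -0.45 (adjusted p = 0.129). Coro1c, a form found in many tissues, read 9.06 and 9.25 after anti-DCIR2-BDC, 8.92 and 9.09 after anti-DEC205-BDC, and 8.0 and 8.26 after PBS. All 4 antibody arrays lie above both PBS arrays. Coro1c rose 2.03-fold after anti-DCIR2-BDC (log2 change 1.02, adjusted p = 0.00297) and 1.84-fold after anti-DEC205-BDC (0.88, adjusted p = 0.0149), the largest rises among the members. Leaving out PBS array 1 (adjusted p = 0.09) or anti-DEC205-BDC array 2 (0.0968) ended the call after anti-DEC205-BDC. Coro1b, which works on branches at the leading edge, read 8.69 and 8.57 after anti-DCIR2-BDC, 9.17 and 8.92 after anti-DEC205-BDC, and 9.01 and 9.22 after PBS, with a log2 change of -0.48 after anti-DCIR2-BDC (adjusted p = 0.0973) and -0.07 after anti-DEC205-BDC (adjusted p = 0.888). The intervals of Coro1b (-0.88 to -0.09) and Coro1c (0.62 to 1.43) after anti-DCIR2-BDC do not overlap.

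None of the 5 measured subunits of the Arp2/3 complex itself passed in any comparison. Arpc2 read 10.42 and 10.51 after anti-DCIR2-BDC, 10.58 and 10.66 after anti-DEC205-BDC, and 10.5 and 10.59 after PBS. The anti-DCIR2-BDC and PBS arrays overlap, and its log2 change after anti-DCIR2-BDC was -0.08 (95% interval -0.36 to 0.19). The log2 changes of Arpc1b, Arpc2, Arpc4, Arpc5 and Actr3 lay between -0.26 and 0.39 after anti-DCIR2-BDC and between -0.02 and 0.36 after anti-DEC205-BDC. The upper ends belong to Arpc4 (adjusted p = 0.146 and 0.246), whose antibody arrays, at 9.68 and 9.65 after anti-DCIR2-BDC and 9.53 and 9.74 after anti-DEC205-BDC, lie above its PBS arrays at 9.16 and 9.39. At the unadjusted level, 1 of the 5 subunits, Arpc4, had a p under 0.05 after anti-DCIR2-BDC and 0 did after anti-DEC205-BDC, where 28.1% and 20.7% of all genes did.

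Of the members that switch Arp2/3 on, only Wipf1 passed against PBS on the deposited values with all arrays in the fit. Wipf1 encodes WIP, the partner that keeps WASP stable. It read 9.21 and 9.18 after anti-DCIR2-BDC, 9.22 and 9.09 after anti-DEC205-BDC, and 10.09 and 9.82 after PBS, so the antibody arrays overlap each other and all lie below PBS. It fell by 0.76 after anti-DCIR2-BDC (adjusted p = 0.00841) and by 0.80 after anti-DEC205-BDC (adjusted p = 0.0136) on the log2 scale. Without PBS array 1 it did not pass in either comparison (adjusted p = 0.0711 and 0.0984), nor without anti-DCIR2-BDC array 2 in the first (0.0571) or anti-DEC205-BDC array 2 in the second (0.0837). Was, which encodes WASP, Wasf2, which encodes WAVE2, and the cortactin relative Hcls1 had log2 changes of -0.17, -0.47 and -0.08 after anti-DCIR2-BDC and -0.20, -0.27 and 0.14 after anti-DEC205-BDC, with adjusted p from 0.149 to 0.831. Wasf2 passed after anti-DCIR2-BDC without PBS array 1, with a log2 change of -0.73 (adjusted p = 0.0428), and was at -0.21 without PBS array 2 (adjusted p = 0.625). It also passed with quantile normalization (-0.65, adjusted p = 0.0315), as did Coro1b (-0.62, adjusted p = 0.0339).

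Dock2 and Dock8 fell after both antibodies. Dock2, the exchange factor that loads Rac with GTP in lymphocytes, read 8.58 and 8.62 after anti-DCIR2-BDC, 9.07 and 9.03 after anti-DEC205-BDC, and 9.83 and 10.11 after PBS. The 3 groups are separate, with PBS highest. Dock2 was 2.58-fold lower after anti-DCIR2-BDC (log2 change -1.37, adjusted p = 0.000332) and 1.88-fold lower after anti-DEC205-BDC (-0.91, adjusted p = 0.00802). Dock8, an exchange factor for Cdc42 that migrating T cells need, read 8.46 and 8.85 after anti-DCIR2-BDC, 9.08 and 9.08 after anti-DEC205-BDC, and 9.62 and 10.02 after PBS. It was 2.24-fold lower after anti-DCIR2-BDC (-1.16, adjusted p = 0.00226) and 1.67-fold lower after anti-DEC205-BDC (-0.74, adjusted p = 0.0456). After anti-DEC205-BDC, leaving out PBS array 2 ended the call of Dock2 (adjusted p = 0.0566), and Dock8 passed only with PBS array 1 left out among the 6 settings that leave out 1 array (adjusted p = 0.0516 to 0.242 in the other 5).

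Arhgdib also fell after both antibodies. It read 10.82 and 10.69 after anti-DCIR2-BDC, 11.01 and 11.22 after anti-DEC205-BDC, and 11.54 and 11.74 after PBS, without overlap between the groups. Its log2 change was -0.89 after anti-DCIR2-BDC (adjusted p = 0.00072) and -0.53 after anti-DEC205-BDC (adjusted p = 0.0264), the second call not passing without PBS array 2 (0.163) or anti-DEC205-BDC array 1 (0.172). Rhoh, which T cell receptor signalling needs, read 8.29 and 8.17 after anti-DCIR2-BDC, 8.24 and 8.24 after anti-DEC205-BDC, and 8.86 and 9.10 after PBS. Like Wipf1, its antibody arrays lie together below PBS. Rhoh fell by 0.74 on the log2 scale after either antibody (adjusted p = 0.0157 after anti-DCIR2-BDC and 0.0303 after anti-DEC205-BDC). Its first call did not pass without PBS array 2 (0.101), anti-DCIR2-BDC array 1 (0.0616) or anti-DCIR2-BDC array 2 (0.107), and its second was lost whichever of the 6 arrays was left out (0.054 to 0.154).

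The paired GTPases Rac1 and Rac2 gave different calls after anti-DCIR2-BDC. Rac2, the form of blood cells, read 10.44 and 10.54 after anti-DCIR2-BDC, 11.02 and 11.22 after anti-DEC205-BDC, and 11.48 and 11.58 after PBS. Rac2 fell after anti-DCIR2-BDC (log2 change -1.04, 95% interval -1.30 to -0.78, adjusted p = 0.000225), and its change after anti-DEC205-BDC was -0.41 (adjusted p = 0.0627). Rac1, the widespread form, read 8.86 and 8.72 after anti-DCIR2-BDC, 8.82 and 8.95 after anti-DEC205-BDC, and 8.91 and 9.27 after PBS. Its log2 change after anti-DCIR2-BDC was -0.29 (95% interval -0.71 to 0.12, adjusted p = 0.359), and the interval does not reach that of Rac2. Rhoa and Cdc42, the GTPases of contraction and of polarity, had log2 changes of -0.18 and -0.04 after anti-DCIR2-BDC and -0.03 and -0.11 after anti-DEC205-BDC, with adjusted p from 0.54 to 0.959. A second probe set of Rhoa gave -0.14 after anti-DCIR2-BDC and -0.07 after anti-DEC205-BDC.

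**Figure D2:**
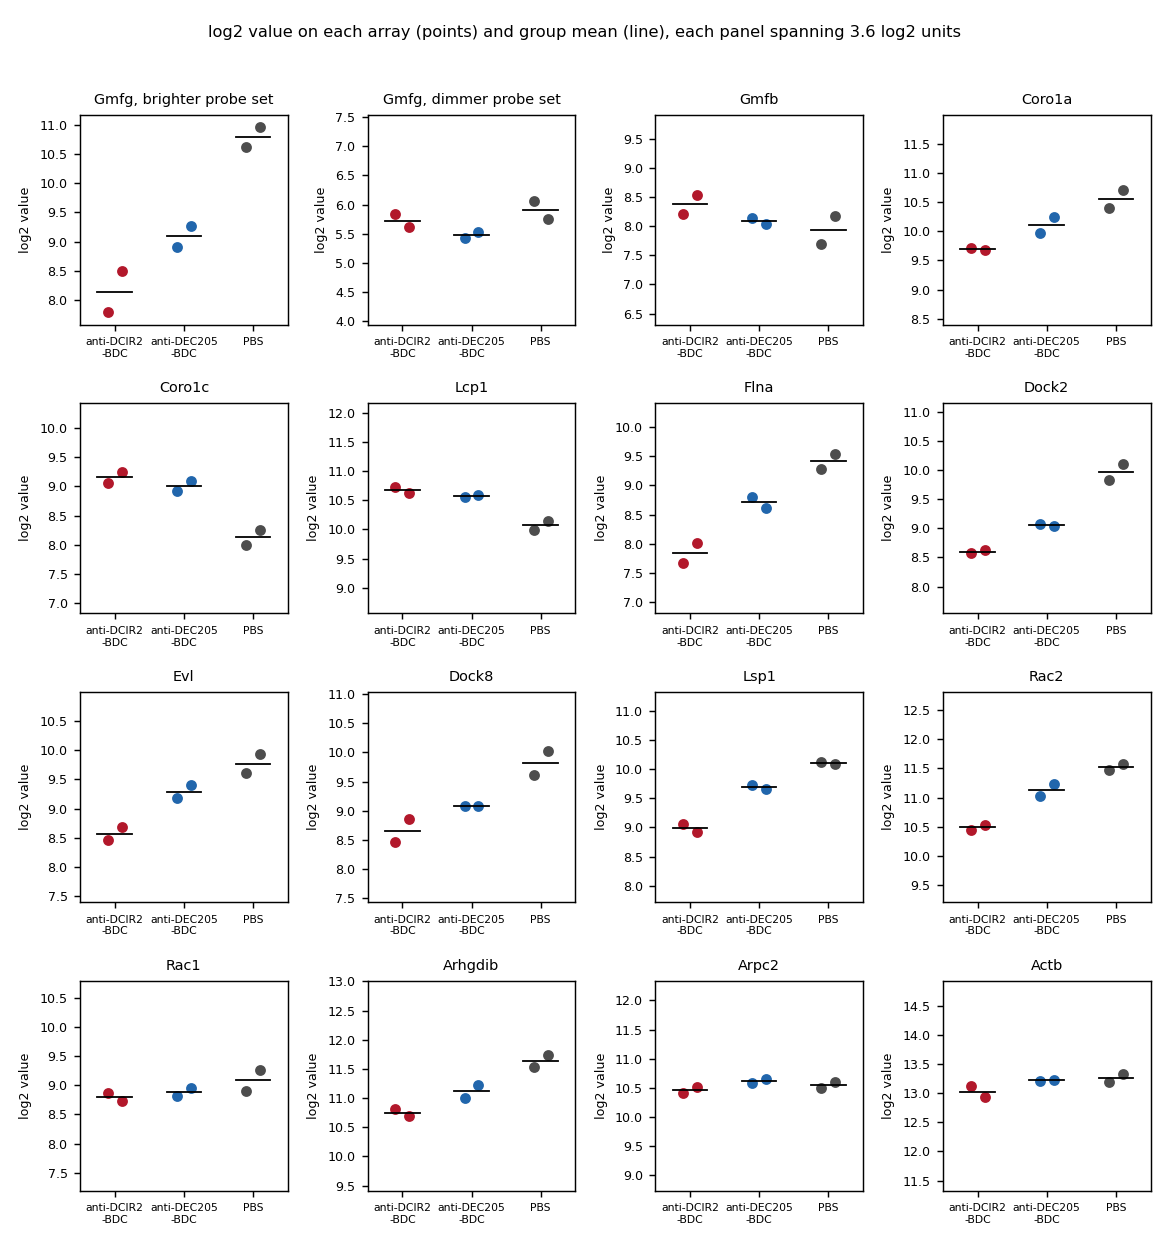
Log2 value (vertical axis) on each array for 15 actin regulators, with both probe sets of Gmfg, in cells from mice given anti-DCIR2-BDC (red), anti-DEC205-BDC (blue) or PBS (grey). Points are single arrays and lines the means of 2, and heights may be compared within a panel only. In the panels of Gmfg (brighter probe set), Flna, Dock2, Evl, Dock8, Lsp1, Rac2, Coro1a and Arhgdib the 3 groups are separate with anti-DCIR2-BDC lowest. In those of Coro1c and Lcp1 both antibody groups lie above PBS.

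Among actin and the proteins that bind its single molecules, the thymosins fell and the rest did not pass. Tmsb4x encodes thymosin beta 4, the main store-keeper of unpolymerised actin. It read 10.87 and 11.20 after anti-DCIR2-BDC, 11.41 and 11.12 after anti-DEC205-BDC, and 11.84 and 11.78 after PBS. The antibody groups overlap each other and both lie below PBS. Its log2 change was -0.77 after anti-DCIR2-BDC (adjusted p = 0.0029) and -0.55 after anti-DEC205-BDC (adjusted p = 0.0347), and the second call did not pass without PBS array 1 (0.151), PBS array 2 (0.101) or anti-DEC205-BDC array 2 (0.226). Tmsb10, its close relative, read 12.06 and 12.40 after anti-DCIR2-BDC, 12.63 and 12.66 after anti-DEC205-BDC, and 12.87 and 12.96 after PBS. It fell after anti-DCIR2-BDC (log2 change -0.68, adjusted p = 0.00107), and its change after anti-DEC205-BDC was -0.27 (adjusted p = 0.155), which passed without anti-DCIR2-BDC array 1 (0.0385) or array 2 (0.0422). A second Tmsb10 probe set gave -1.06 after anti-DCIR2-BDC (adjusted p = 0.00964 with every probe set tested) and -0.32 after anti-DEC205-BDC (adjusted p = 0.297). Markers of platelets, cells rich in thymosin beta 4, had 0 of 4 measured members called in any comparison. Of all genes 17.9% were called after anti-DCIR2-BDC, 8.84% after anti-DEC205-BDC and 0.0201% between the antibodies. The mean of these markers was 5.21 to 5.29 after anti-DCIR2-BDC, 5.28 to 5.34 after anti-DEC205-BDC and 5.40 to 5.51 after PBS. A count over 4 genes at these shares cannot show whether platelets took part, which was not tested.

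Actb, beta actin, read 13.12 and 12.94 after anti-DCIR2-BDC, 13.21 and 13.23 after anti-DEC205-BDC, and 13.19 and 13.32 after PBS. Its log2 change after anti-DCIR2-BDC was -0.23 (95% interval -0.40 to -0.06, adjusted p = 0.0614), and it passed without anti-DCIR2-BDC array 1 (-0.32, adjusted p = 0.0233). It was -0.14 without anti-DCIR2-BDC array 2 (adjusted p = 0.303), -0.12 with median centring (0.32) and -0.0035 with quantile normalization (0.987). After anti-DEC205-BDC it was -0.04 (-0.20 to 0.13, adjusted p = 0.855). The 4 probe sets that name both Actg1 and Actb cannot be assigned to either gene. Their log2 changes lay on the other side of 0 from that of Actb, at 0.07 to 0.27 after anti-DCIR2-BDC and 0.10 to 0.13 after anti-DEC205-BDC, with 0 of 4 called when every probe set was tested (adjusted p from 0.189 to 0.73). Pfn1, profilin, which feeds actin to growing ends, read 12.26 and 12.20 after anti-DCIR2-BDC, 12.07 and 12.30 after anti-DEC205-BDC, and 12.09 and 12.26 after PBS, and the 3 groups overlap. Its log2 change was 0.06 (95% interval -0.17 to 0.28) and 0.01 (-0.21 to 0.24). Cfl1, cofilin, which cuts filaments, read 10.64 and 10.49 after anti-DCIR2-BDC, 10.45 and 10.65 after anti-DEC205-BDC, and 10.18 and 10.52 after PBS, with log2 changes of 0.22 (-0.12 to 0.55) and 0.20 (-0.13 to 0.54). Cap1, which recycles actin after cofilin has cut, had a log2 change of -0.43 after anti-DCIR2-BDC (adjusted p = 0.127) and -0.05 after anti-DEC205-BDC (adjusted p = 0.922). After anti-DCIR2-BDC it was -0.25 without anti-DCIR2-BDC array 1 (adjusted p = 0.501), and it passed with quantile normalization (-0.58, adjusted p = 0.0258).

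Of the members at filament ends, only Evl, from the Ena/VASP family that lets filaments grow, passed, and only after anti-DCIR2-BDC. It read 8.46 and 8.68 after anti-DCIR2-BDC, 9.19 and 9.39 after anti-DEC205-BDC, and 9.61 and 9.94 after PBS, without overlap. Evl was 2.30-fold lower after anti-DCIR2-BDC (log2 change -1.20, 95% interval -1.61 to -0.79, adjusted p = 0.0012), and its change after anti-DEC205-BDC was -0.48 (adjusted p = 0.16). Its relative Vasp had log2 changes of 0.21 (-0.17 to 0.59) after anti-DCIR2-BDC and 0.26 (-0.12 to 0.64) after anti-DEC205-BDC, and the interval after anti-DCIR2-BDC lies above that of Evl. The capping proteins Capzb and Capg had log2 changes of 0.36 and -0.31 after anti-DCIR2-BDC and 0.10 and 0.41 after anti-DEC205-BDC (adjusted p from 0.185 to 0.821). Capg was the 1 member outside the brightest 25% of genes, at percentile 59.0.

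The crosslinkers, the myosin and the links to the membrane gave 5 falls and 1 rise in 7 after anti-DCIR2-BDC, and 0 falls and 1 rise after anti-DEC205-BDC. The shares of all genes were 7.82% lower and 10.1% higher after anti-DCIR2-BDC, and 3.53% and 5.32% after anti-DEC205-BDC. Flna, filamin A, which ties filaments into a network and to integrins, read 7.68 and 8.01 after anti-DCIR2-BDC, 8.81 and 8.61 after anti-DEC205-BDC, and 9.29 and 9.54 after PBS. After anti-DCIR2-BDC it was 2.97-fold lower (log2 change -1.57, adjusted p = 0.00036), the second largest fall among the members. Its change after anti-DEC205-BDC was -0.70 (adjusted p = 0.0522), which passed under 7 of 17 alternatives. Lsp1, an actin-binding protein of leukocytes, read 9.06 and 8.93 after anti-DCIR2-BDC, 9.73 and 9.66 after anti-DEC205-BDC, and 10.12 and 10.09 after PBS. Replicates of Lsp1 lie close together and the groups are separate. Lsp1 was 2.16-fold lower after anti-DCIR2-BDC (log2 change -1.11, adjusted p = 0.000554), and its change after anti-DEC205-BDC was -0.41 (adjusted p = 0.139).

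Lcp1, the filament bundler L-plastin, was the other member that rose. It read 10.73 and 10.62 after anti-DCIR2-BDC, 10.56 and 10.59 after anti-DEC205-BDC, and 9.99 and 10.15 after PBS, so all antibody arrays lie above PBS. Lcp1 rose 1.52-fold after anti-DCIR2-BDC (log2 change 0.61, adjusted p = 0.0079) and 1.42-fold after anti-DEC205-BDC (0.51, adjusted p = 0.0367). The first call did not pass without PBS array 1 (0.0559) or anti-DCIR2-BDC array 1 (0.0587), and the second was lost whichever of the 6 arrays was left out (0.0533 to 0.183).

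Msn, moesin, which fixes filaments to the cell membrane, read 10.15 and 10.19 after anti-DCIR2-BDC, 10.37 and 10.43 after anti-DEC205-BDC, and 10.75 and 10.95 after PBS. It fell after anti-DCIR2-BDC (log2 change -0.68, adjusted p = 0.00426), and its change after anti-DEC205-BDC was -0.45 (adjusted p = 0.0625). The latter passed with the replicate block (0.0366), with quantile normalization (0.024) and without the dimmest 50% of genes (0.0382). Its relative Ezr, ezrin, did not pass, at -0.26 (adjusted p = 0.49) and -0.03 (adjusted p = 0.96). Tln1, talin, which activates integrins, read 8.52 and 8.62 after anti-DCIR2-BDC, 8.88 and 8.90 after anti-DEC205-BDC, and 9.08 and 9.25 after PBS. Myh9, the heavy chain of a nonmuscle myosin, read 9.24 and 9.13 after anti-DCIR2-BDC, 9.47 and 9.63 after anti-DEC205-BDC, and 9.59 and 9.91 after PBS. For both, the anti-DCIR2-BDC arrays are the lowest. Tln1 and Myh9 fell after anti-DCIR2-BDC by 0.59 (adjusted p = 0.0348) and by 0.57 (adjusted p = 0.0414) on the log2 scale. Tln1 did not pass without PBS array 1 (0.0668), PBS array 2 (0.165), anti-DEC205-BDC array 1 (0.0501), anti-DCIR2-BDC array 1 (0.163) or array 2 (0.103). Myh9 passed only without PBS array 1 among those settings (0.0529 to 0.244 in the other 5). A second Myh9 probe set gave a log2 change of -1.46 after anti-DCIR2-BDC (adjusted p = 0.0479 with every probe set tested) and -0.86 after anti-DEC205-BDC (adjusted p = 0.273), and the mean of both gave -1.02 after anti-DCIR2-BDC.

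Set directly against each other, the antibodies gave 0 of 39 calls among the members, where 0.0201% of all genes passed (limma). The smallest adjusted p was 0.166, for Rac2, whose log2 change for anti-DCIR2-BDC against anti-DEC205-BDC was -0.63 (95% interval -0.90 to -0.37). At an unadjusted p under 0.05 there were 12 members, all 12 lower after anti-DCIR2-BDC, where 4.63% of all genes were lower at that level and 10.2% reached it in either direction. The arrays of 22 members lay lower after anti-DCIR2-BDC without overlap and those of 3 higher, with 20.9% and 19.3% of all genes in those positions, 40.2% in all. Gmfg differed by -0.94 (-1.48 to -0.40, adjusted p = 0.235), Flna by -0.86 (-1.30 to -0.43, adjusted p = 0.206) and Lsp1 by -0.70 (-1.04 to -0.37, adjusted p = 0.184). For 12 members all arrays were ordered with anti-DCIR2-BDC lowest, anti-DEC205-BDC between and PBS highest, an order that 7.1% of all genes had. Rhoh and Wipf1 differed by -0.00 (-0.41 to 0.40) and 0.04 (-0.33 to 0.40), intervals that do not show them to be alike. The members called against PBS after 1 antibody and not after the other are therefore not shown to differ between the antibodies.

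**Figure D3:**
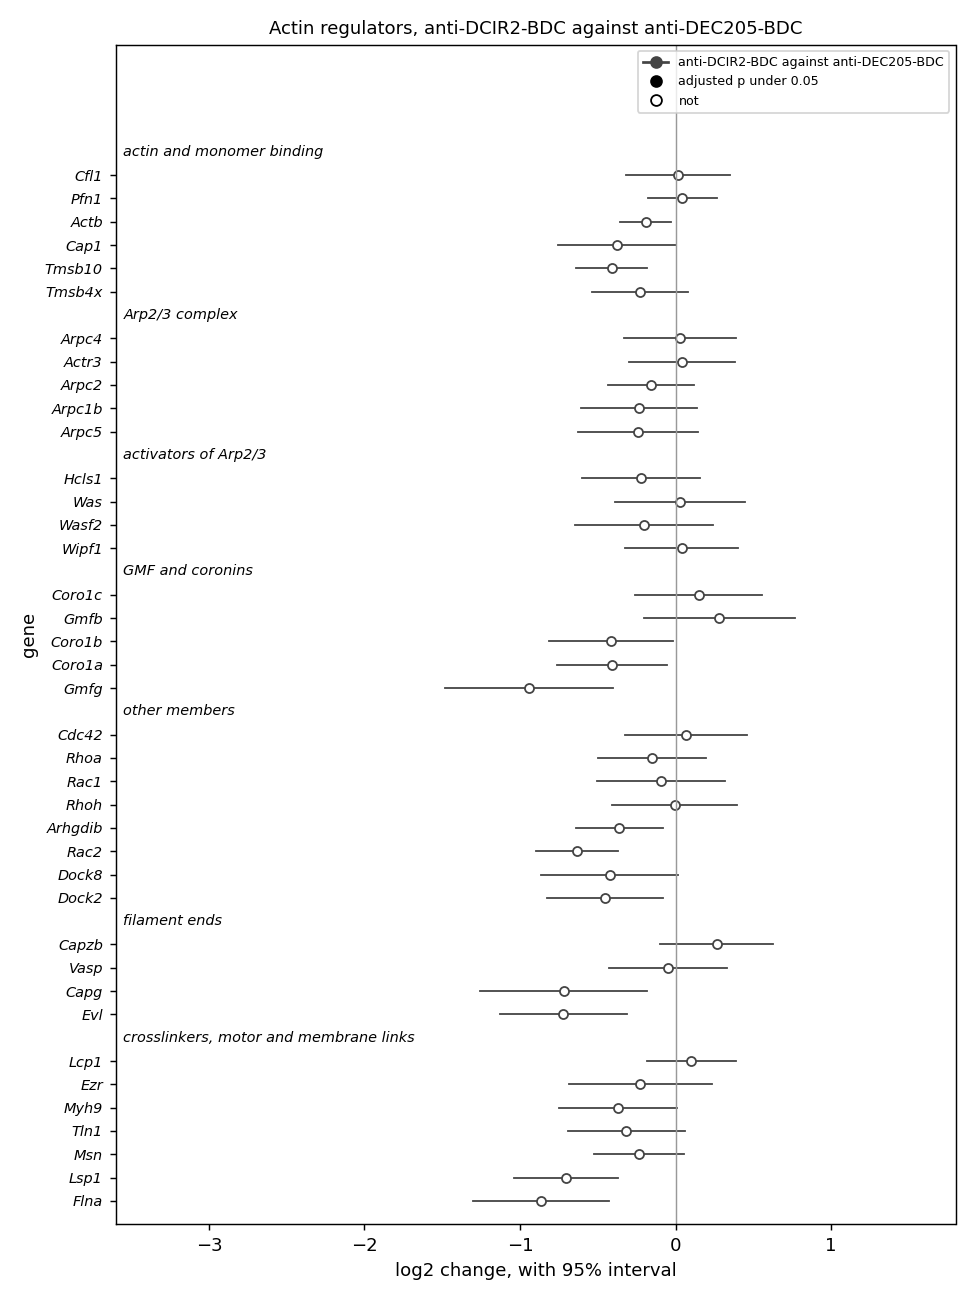
Log2 change for anti-DCIR2-BDC against anti-DEC205-BDC (horizontal axis) of the 39 measured actin regulators by role, with 95% intervals. All points are open because 0 members passed an adjusted p of 0.05, and 28 of the 39 lie below 0, from -0.94 for Gmfg upwards.

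Which array was left out changed the counts after anti-DEC205-BDC more than those after anti-DCIR2-BDC. After anti-DCIR2-BDC the 18 calls became 14 to 17 when 1 array was left out, and 13 of the 18 passed under all 17 alternatives. After anti-DEC205-BDC the 9 calls became 4 without PBS array 1, 3 without PBS array 2, 5 without anti-DEC205-BDC array 1 and 3 without array 2. They became 1 when every probe set was tested, and Gmfg alone passed throughout. With each array centred on its median the split after anti-DEC205-BDC was 2 higher and 3 lower, beside 2 and 7 as deposited.

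Some T cell markers fell as well. After anti-DCIR2-BDC 6 of 9 measured T cell markers fell, where 7.82% of all genes and 15.7% of the brightest 25% did. Cd247, Thy1 and Cd5 were not called there, with log2 changes of -0.34, -0.82 and 0.04. After anti-DEC205-BDC 1 of 9 fell, Trat1, where 3.53% and 7.62% did, and Cd5 was at 0.20. The mean of that list was 9.59 and 9.63 on the anti-DCIR2-BDC arrays, 9.94 and 9.9997 on the anti-DEC205-BDC arrays and 10.33 and 10.47 on the PBS arrays, and its part in the results was not tested. Of 4 NK cell markers 2 fell after anti-DCIR2-BDC, Gzma (log2 change -1.15) and Klrk1 (-0.52), and 0 after anti-DEC205-BDC. Ncr1 and Klrb1c were at -0.17 and 0.16 after anti-DCIR2-BDC. All 4 were dim, at percentiles 6.61 to 20.1, and Gzma read 5.81 and 4.62 after PBS. Pecam1, on the stromal and endothelial list, fell by 1.96 after anti-DCIR2-BDC (adjusted p = 0.000517) and by 1.06 after anti-DEC205-BDC (adjusted p = 0.0304) on the log2 scale. It was the only 1 of 4 measured genes of that list called in either comparison. Col1a1, Cdh5 and Pdgfrb were at -0.06, -0.02 and 0.06 after anti-DCIR2-BDC and at -0.20, 0.09 and -0.005 after anti-DEC205-BDC. Cd14, on the macrophage and monocyte list, fell by 0.83 after anti-DEC205-BDC (adjusted p = 0.0341), the 1 call among 6 measured markers. Adgre1, Csf1r and Lyz2 were at -0.09, -0.10 and -0.07 there, and C1qa and Cd68 at 0.05 and 0.20. Cd14 was dim, at percentile 20.2, and read 4.47 and 3.71 after anti-DEC205-BDC and 4.98 and 4.85 after PBS.

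The wider actin machinery was followed in a list of 162 other genes, of which 154 were measured. After anti-DCIR2-BDC 46 fell and 12 rose (29.9% and 7.79%), beside 7.82% and 10.1% of all genes. With median centring these counts were 39 lower and 17 higher. After anti-DEC205-BDC 25 fell and 2 rose (16.2% and 1.30%), beside 3.53% and 5.32%. Among the brightest 25% of genes 15.7% were called lower and 27.1% higher after anti-DCIR2-BDC, and 7.62% and 16.1% after anti-DEC205-BDC. The list is mostly bright, as 119 of its 154 measured genes remained once the dimmest 50% of genes were dropped. Between the antibodies 0 of 154 passed, with 24 at an unadjusted p under 0.05, of which 20 were lower after anti-DCIR2-BDC. The median log2 change of the list was -0.22 after anti-DCIR2-BDC and -0.15 after anti-DEC205-BDC. The counts called became 29 without anti-DCIR2-BDC array 1 and 38 without array 2 in the first comparison. In the second they became 7 without PBS array 2, 9 without anti-DEC205-BDC array 1 and 10 without array 2.

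The 5 largest falls after anti-DCIR2-BDC in that list included adaptors that couple the T cell receptor to integrins. Arhgap45 read 8.29 and 8.69 after anti-DCIR2-BDC, 9.44 and 9.23 after anti-DEC205-BDC, and 10.23 and 10.54 after PBS. It fell by 1.90 after anti-DCIR2-BDC (adjusted p = 0.00013) and by 1.05 after anti-DEC205-BDC (adjusted p = 0.00796). Arhgap15 and Arhgap4 fell by 1.81 (adjusted p = 0.00028) and by 1.74 (adjusted p = 0.000333) after anti-DCIR2-BDC. The adaptors Skap1 and Fyb, which work as a pair between the receptor and integrins, fell by 1.88 (adjusted p = 0.000975) and by 1.78 (adjusted p = 9.39e-05). After anti-DEC205-BDC the largest falls were those of Cdc42ep3, a Cdc42 effector (log2 change -1.31), Arhgap15 (-1.26), the adducin Add1 (-1.21), the scaffold Iqgap2 (-1.18) and the exchange factor Arhgef18 (-1.14), with adjusted p from 0.00586 to 0.0222. Of these 5, Arhgap15 and Arhgef18 passed whichever array was left out. Cdc42ep3 did not pass without PBS array 1 (0.123) or anti-DEC205-BDC array 2 (0.131, log2 change -0.86), Add1 without PBS array 2 (0.0511) or anti-DEC205-BDC array 1 (0.0549), and Iqgap2 without PBS array 2 (0.0703), anti-DEC205-BDC array 1 (0.053) or array 2 (0.0528). Arhgap45 did not pass after anti-DEC205-BDC without PBS array 2 (0.055) or anti-DEC205-BDC array 2 (0.0543).

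The largest rises after anti-DCIR2-BDC in that list were those of Dstn, a cofilin relative that takes filaments apart (log2 change 1.22, adjusted p = 0.00141), the myosins Myo1d (1.04, adjusted p = 0.0337) and Myo5a (1.02, adjusted p = 0.00309), Srf, the transcription factor that senses free actin through its cofactors (1.01, adjusted p = 0.00638), and Marcksl1, a membrane-bound actin binder (1.0, adjusted p = 0.0229). Srf read 9.11 and 8.99 after anti-DCIR2-BDC, 8.75 and 8.53 after anti-DEC205-BDC, and 8.28 and 7.79 after PBS, with both PBS arrays lowest. After anti-DEC205-BDC the rises were Marcksl1 (1.02, adjusted p = 0.0373) and Tesk1, a kinase that turns cofilin off (0.94, adjusted p = 0.0116). Srf did not pass after anti-DCIR2-BDC without anti-DCIR2-BDC array 1 (0.0607). Myo1d did not pass without PBS array 1 (0.0893), PBS array 2 (0.121) or anti-DCIR2-BDC array 2 (0.288, log2 change 0.62). Marcksl1 did not pass after anti-DCIR2-BDC without PBS array 1 (0.169, log2 change 0.64), anti-DCIR2-BDC array 1 (0.0991) or array 2 (0.148). After anti-DEC205-BDC, Marcksl1 did not pass without PBS array 1 (0.225, log2 change 0.66), anti-DEC205-BDC array 2 (0.206), anti-DCIR2-BDC array 1 (0.0763) or array 2 (0.0766), and Tesk1 did not pass without PBS array 2 (0.0611) or anti-DEC205-BDC array 2 (0.0701).

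**Figure D4:**
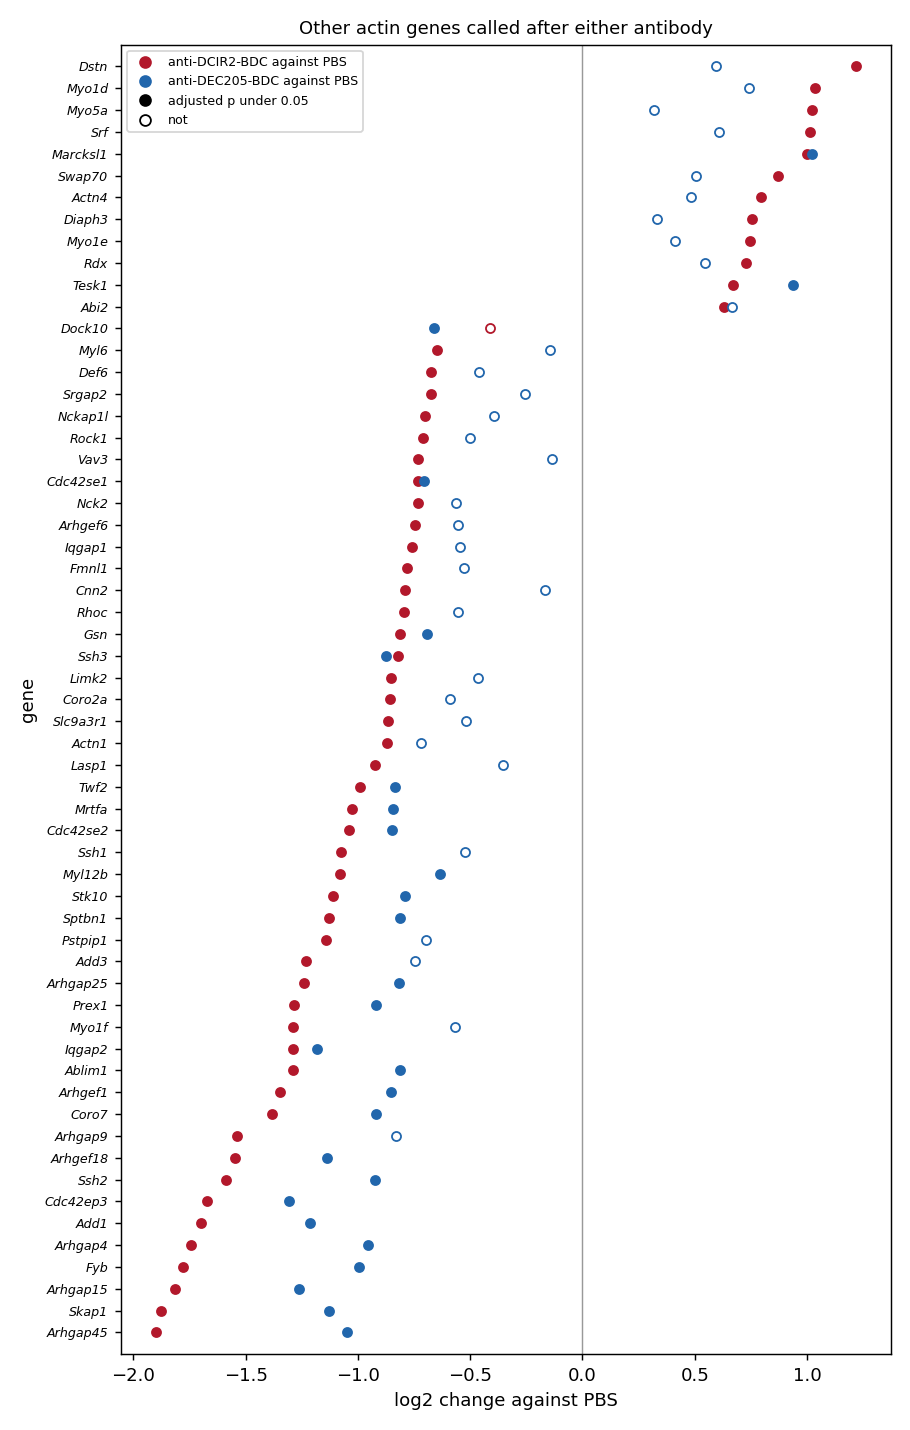
Log2 change against PBS (horizontal axis) of the genes in the wider actin list that passed after either antibody, with anti-DCIR2-BDC in red and anti-DEC205-BDC in blue, filled where the adjusted p was under 0.05. Most points lie left of 0, from Arhgap45 at -1.90 after anti-DCIR2-BDC, and Dstn lies highest at 1.22.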

How the data were processed

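The deposited table holds log2 expression values per probe set, 1 column per array. The authors obtained them with RMA, run in Partek software, as the design text of the series states. RMA subtracts background, normalizes between arrays and combines the probes of a set, so a shift common to the whole transcriptome can be hidden. The deposited arrays do not share one distribution, and a further quantile normalization was among the alternatives. Per the labels' protocols, 5 ng of total RNA was amplified before labelling, which can add noise. Version and settings: not given in the sources used here.

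Of 35556 probe sets, 21789 named 1 symbol, which gave 19938 genes, and no dim genes were removed. The model was fitted with limma 3.58.1 in R 4.3.3, with a coefficient for each group, a variance trend and Benjamini-Hochberg adjustment across all genes. Calls took an adjusted p under 0.05, and fold changes are 2 to the power of the log2 change. The 95% interval of a member's log2 change reached 0.38 to either side at the median, and the number of arrays limits this precision. The fit was also run on simulated arrays with independent noise for each gene, which checks the code and not these results. Alternatives left out each array, used the replicate number as a block, or changed the normalization, the probe sets, the filter on dim genes or the variance model. Values in every array are given for the up to 12 largest calls in each direction, for pairs of close relatives and for Actb, Pfn1, Cfl1 and Coro1a. In the wider actin list the up to 5 largest calls in each direction are named. Array values of Msn, Tln1, Myh9, Arpc2, Arpc4, Arhgap45 and Srf were added after they were seen. Promoter sequences came from RefSeq on GRCm38.p6 and were searched on both strands. The members and lists were chosen with earlier results of these data known.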

Additional observations from a re-analysis of the deposited data

How the results depend on the processing

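Every change of a member that was called kept its direction under all 17 alternatives, with 0 reversed. Of the 18 calls after anti-DCIR2-BDC, 13 passed under all of them, and of the 9 after anti-DEC205-BDC 1 did. With 1 array left out, the members called were 14 to 17 after anti-DCIR2-BDC, 3 to 7 after anti-DEC205-BDC and 0 between the antibodies. Those called after anti-DEC205-BDC were 5 with median centring and 1 with every probe set tested. In the wider list, leaving out 1 array gave 29 to 61 calls after anti-DCIR2-BDC and 7 to 19 after anti-DEC205-BDC, and 1 was called after anti-DEC205-BDC with every probe set tested. Median centring raised the log2 change of every gene by 0.11 after anti-DCIR2-BDC and by 0.07 after anti-DEC205-BDC.

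All genes called after anti-DEC205-BDC numbered 1763, against 997 to 1367 without 1 array and 694 with every probe set tested. After anti-DCIR2-BDC they numbered 3568, against 2090 to 3637 without 1 array. Between the antibodies they numbered 4, against 0 to 27 without 1 array, 0 with every probe set tested or with no trend, 9 and 7 once the dimmest 50% or 30% were dropped, and 2 with the replicate block. The cause of these shifts was not tested.

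Replicate numbers are shared between groups, but the labels do not say what they pair. Differences between replicates 1 and 2 correlated across genes, which are not independent, at 0.14, 0.13 and 0.07 for the 3 pairs of groups. With the replicate number as a block, 18 members were called after anti-DCIR2-BDC, 12 after anti-DEC205-BDC and 0 between the antibodies, and the wider list gave 61, 31 and 0. Precision is limited by 2 arrays a group.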
